A study of Homo sapiens with 6 samples.

Results

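The replication-dependent cluster histone genes are the gene copies that supply most of the histone protein a cell packs its newly made DNA with. They were chosen by name, as the rows whose symbol starts with HIST1H, HIST2H, HIST3H or HIST4H, and 71 of the 19785 rows of the table met that rule. HIST1 on chromosome 6 held 55 of them, HIST2 on chromosome 1 held 12, HIST3 on chromosome 1 held 3 and HIST4 on chromosome 12 held 1. By type they were 6 linker histones H1, 17 H2A, 18 H2B, 15 H3 and 15 H4 genes. RNA was sequenced from SET-2, an established human leukemia line of megakaryoblastic character that the labels place under secondary acute myeloid leukemia. The 3 parental libraries were compared with 3 libraries of the line called OTX P/R, a derivative in a study of resistance to BET inhibitors, drugs that block bromodomain readers of acetylated histones. OTX and P/R are not spelled out in the labels and are read here as the BET inhibitor birabresib and as persister/resistant. Both lines were untreated when harvested, grew in RPMI 1640 medium with fetal bovine serum and were taken in exponential phase as total RNA treated with DNase. The labels name 1 derivative, so what belongs to resistance and what belongs to that line cannot be told apart, and the p-values measure the spread between these cultures.

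Core histones H2A, H2B, H3 and H4 form the spool of the nucleosome, and H1 sits on the linker DNA where it enters and leaves. Transcription of the cluster genes is driven in S phase by NPAT, a substrate of cyclin E with CDK2, and their messages usually end in a short conserved stem-loop in place of a poly(A) tail. The stem-loop is bound by SLBP, and the cut just after it needs the U7 small nuclear RNP. Some cluster genes also make a longer, polyadenylated message, which a library made from poly(A) RNA would favour. The sources used here do not say how RNA was selected for these libraries.

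The stem-loop is shown first because it is what sets these messages apart from others. Read from transcripts of GENCODE release 29, it was found in the gene models of 32 of the 71 members, in 6 versions of 16 bases. The lines below give the 4 versions found in more than 1 member, 5′ to 3′, with the arms of the stem in capitals and the loop in lower case. They are ordered by the number of members that hold them, which is 17, 5, 5 and 3.
most common, H2A, H2B and H3 genes: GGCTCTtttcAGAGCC
HIST1H2BC, HIST1H2BD and other H2B and H3 genes: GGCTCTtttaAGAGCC
HIST1H4H, HIST1H4J and other H4 genes: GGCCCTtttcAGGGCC
HIST1H4I, HIST2H4A and HIST2H4B: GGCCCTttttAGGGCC
The first pair of versions has the same arms and differs in the loop, and so do the versions of the H4 genes, whose arms differ from those of the other types. The remaining 39 gene models held no match to the pattern sought, the models of HIST1H1C, HIST1H2BK and HIST1H2BJ among them. A model can lack a match because it ends early or because its sequence lies outside the pattern. The longest model of HIST1H2BK has 381 bases and that of HIST1H2BJ 950. The missing match is a statement about annotated transcripts and not about the message in these cells. The sources used here do not give the annotation the authors counted on.

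Cluster histone RNA was higher in the OTX P/R line. The values are normalized abundances per gene, scaled by transcript length by the program that made them, and a gene was tested with limma on log2(value + 1) if its mean over the 6 libraries was at least 1. Of the 71 members, 40 were tested, and 27 of them were higher in OTX P/R at a Benjamini-Hochberg adjusted p under 0.05 over all 10741 genes tested. Of all tested genes 18.6% were called higher and 17.5% lower, 36.1% in all. By limma 0 members were lower, also at an unadjusted p under 0.05, and 30 were higher at that level. The median log2 fold change was 0.76 over the 40 tested members and 0.02 over all tested genes. All 40 had a log2 fold change above 0, from 0.12 for HIST1H4A to 1.75 for HIST1H2BC.

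The filter bears on these counts. Among the tested members 6 had a parental mean under 1, so they were tested only because of their level in OTX P/R, and all 6 were called higher. That is near the share among all tested genes with a parental mean under 1, of which 75.2% were called higher. Of the 31 members that were not tested, 5 were listed at 0 in every library: HIST1H1A, HIST1H2AA, HIST1H2BA, HIST3H3 and HIST1H4F. The other 26 had a mean under 1. With no filter, 66 members entered the fit, and 35 were higher and 0 lower by limma, where 14.5% of all genes with a value were higher and 13.4% lower. The OTX P/R mean was above the parental mean in 63 of these 66 and below it in HIST1H3I, HIST4H4 and HIST1H4G. Every OTX P/R library lay above every parental library for 45 of the 66, against 23.8% of all genes with a value, and for 14 of the 26 members under the filter, against 18.9% of genes with a mean under 1.

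**Figure D1:**
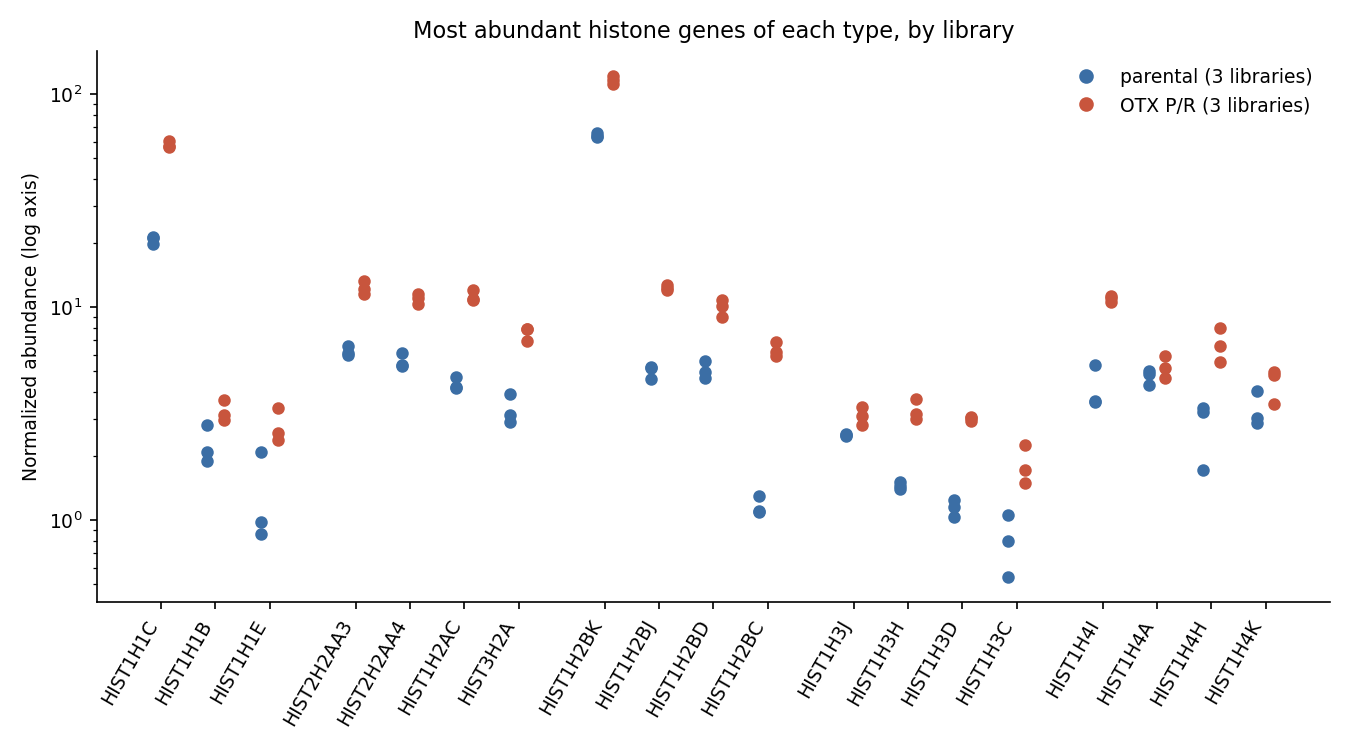
Normalized abundance, on a log axis, of up to 4 of the most abundant tested members of each histone type, with 1 point per library, blue for parental and red for OTX P/R. HIST1H2BK and HIST1H1C stand above the other members, and the red points lie above the blue ones except for HIST1H4A and HIST1H4K, where they overlap.

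Summed over all members, normalized abundance was 183.7, 175.4 and 175.7 in parental libraries 1 to 3 and 366.2, 369.9 and 351.3 in OTX P/R libraries 1 to 3. The groups stood far apart, with a mean of 178 ± 4.72 against 362 ± 9.88 (SD, n = 3 per group), 2.03-fold. HIST1H2BK and HIST1H1C made up much of this total, and without them the sum went from 93.4 ± 3.24 to 187 ± 7.09, 2.01-fold. By type the fold of the sums was 2.62 for H1, 2.02 for H2A, 1.97 for H2B, 1.97 for H3 and 1.72 for H4. These sums were not tested. In a table whose libraries share one distribution of values, they say how far histone genes moved relative to other genes and nothing about RNA per cell.

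**Figure D2:**
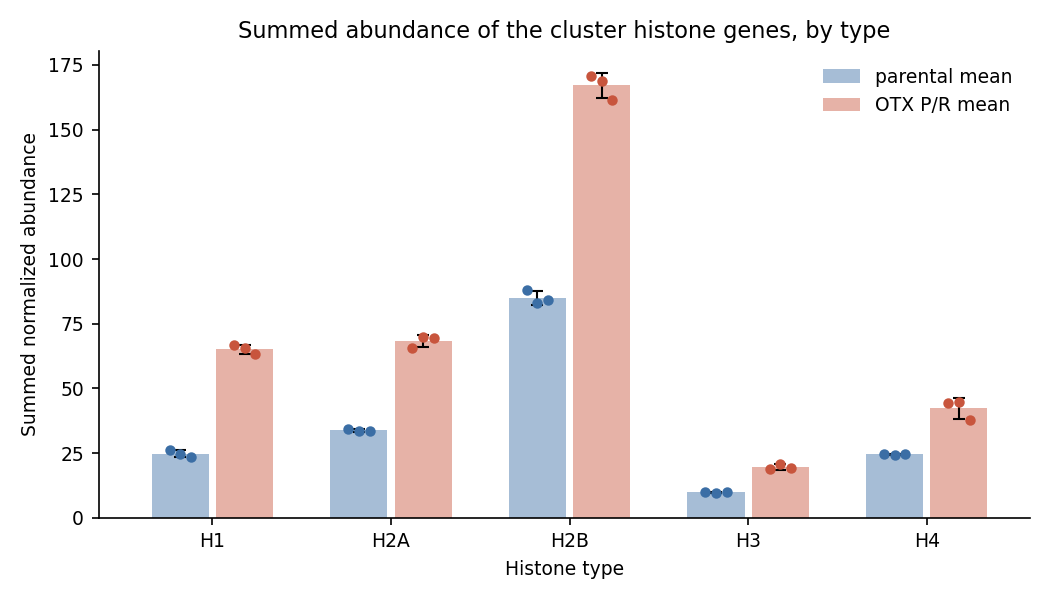
Summed normalized abundance of the members of each histone type. Bars are means of 3 libraries, error bars are SD and points are libraries; H2B makes up the largest share in both lines, and the OTX P/R libraries lie above the parental ones in each type.

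Linker histone RNA came mostly from HIST1H1C, the gene of H1.2. HIST1H1C stood at 21.0, 21.3 and 19.8 in the parental libraries and at 60.1, 57.1 and 56.4 in OTX P/R. Every OTX P/R library was far above every parental one, and the log2 fold change was 1.44 ± 0.05 (SE; limma adjusted p = 1.91e-05). HIST1H1C gave 83.4 ± 3.11% of the summed H1 level in parental cells and 88.7 ± 1.62% in OTX P/R. HIST1H1E, the gene of H1.4, had 2.10, 0.867 and 0.978 in the parental libraries and 2.37, 3.35 and 2.56 in OTX P/R. Parental library 1 lay close to the lowest OTX P/R library, and the log2 fold change of 0.73 ± 0.22 passed narrowly (limma adjusted p = 0.0430). That call was lost without parental replicate 2 or 3 or any 1 of the OTX P/R replicates, with limma adjusted p from 0.0712 to 0.121, which left HIST1H1C as the 1 linker histone called. HIST1H1B, the gene of H1.5, had 2.79, 1.89 and 2.09 against 3.13, 3.67 and 2.97. Its groups did not overlap, but its log2 fold change of 0.39 ± 0.12 missed the threshold (limma adjusted p = 0.0530), and it passed without parental replicate 1 (0.0188). HIST1H1D had a mean under 1 and was not tested, HIST1H1T, known from the testis, was at or near 0, and HIST1H1A was listed at 0.

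The promoters of HIST1H1C and of the H2B genes below were picked after the values were seen, from genes that moved by different amounts. Whether the sequences bear on those amounts was not tested. Shown are the 250 bases before the annotated start, from RefSeq on GRCh38.p14, all on the minus strand. Capitals mark exact matches on either strand to the octamer ATTTGCAT, to TATAAA and to CCAAT.
HIST1H1C, chr6:26056471-26056720: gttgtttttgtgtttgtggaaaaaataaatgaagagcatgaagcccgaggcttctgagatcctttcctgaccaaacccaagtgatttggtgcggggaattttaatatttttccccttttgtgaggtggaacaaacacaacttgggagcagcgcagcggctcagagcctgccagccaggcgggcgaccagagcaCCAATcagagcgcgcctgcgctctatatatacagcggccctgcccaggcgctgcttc
HIST1H2BC, chr6:26123927-26124176: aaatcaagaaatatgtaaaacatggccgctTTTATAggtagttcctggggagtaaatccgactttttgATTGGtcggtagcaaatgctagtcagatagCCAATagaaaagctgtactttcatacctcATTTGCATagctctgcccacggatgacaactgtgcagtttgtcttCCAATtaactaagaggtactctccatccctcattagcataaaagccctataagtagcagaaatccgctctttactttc
HIST1H2BK, chr6:27146859-27147108: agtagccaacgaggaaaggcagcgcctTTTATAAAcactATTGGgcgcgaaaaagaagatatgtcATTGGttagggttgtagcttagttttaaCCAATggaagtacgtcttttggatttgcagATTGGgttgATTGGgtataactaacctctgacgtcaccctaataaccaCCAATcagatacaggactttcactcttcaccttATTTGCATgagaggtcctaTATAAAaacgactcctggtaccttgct
HIST2H2BE, chr1:149886683-149886932: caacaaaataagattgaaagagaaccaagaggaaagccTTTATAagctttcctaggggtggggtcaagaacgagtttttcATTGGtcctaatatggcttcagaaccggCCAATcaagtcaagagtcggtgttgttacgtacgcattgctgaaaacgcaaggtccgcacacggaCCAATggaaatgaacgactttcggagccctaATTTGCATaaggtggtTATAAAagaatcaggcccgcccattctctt
HIST1H2BL, chr6:27807930-27808179: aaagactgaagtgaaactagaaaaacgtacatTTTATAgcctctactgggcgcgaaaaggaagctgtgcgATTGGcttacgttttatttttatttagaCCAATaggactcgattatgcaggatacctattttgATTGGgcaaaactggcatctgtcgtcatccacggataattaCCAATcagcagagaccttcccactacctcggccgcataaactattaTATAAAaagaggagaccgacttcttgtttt
In HIST1H2BK and HIST2H2BE the octamer starts 46 bases before the start, just ahead of TATAAA. In HIST1H2BC the exact octamer starts 123 bases before and no exact TATAAA follows it. Nearer the start of HIST1H2BC stands attagcat, which is close to the octamer and is unmarked because only exact matches were sought. HIST1H2BL and HIST1H1C hold no exact octamer.

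A promoter window was found for 66 of the 71 members. The octamer, the site of the factor OCT1 and named for H2B genes, was in 14 of 18 H2B windows (77.8%) and 11 of 16 H2A windows (68.8%). It was in 1 of 13 H3 windows and in 0 of the 6 H1 and 0 of the 13 H4 windows, against 1.66% of the 27305 windows of all genes. The 1 H3 window, that of HIST1H3D, is the same stretch as the window of HIST1H2AD, so its octamer is counted for both genes. Both are also among the higher members counted below. Many H2A and H2B genes lie head to head, so their windows overlap and the same octamer can be counted for both. CCAAT was in every H1, H2A, H2B and H3 window and in 3 of 13 H4 windows (23.1%), against 33.0% of all genes. TATAAA was in 66.7% of the members' windows and in 11.1% of all. Among the 27 members that were higher, 15 windows held the octamer, and among the 9 tested members that did not pass and had a window, 3 did. Both groups hold H1 and H4 genes, types with 0 octamers, in unequal parts. The difference between the groups was not tested.

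H2A genes had no single leader, and 8 of the 13 tested were higher. HIST2H2AA3 and HIST2H2AA4 have the same coding sequence, so their reads can be shared and the pair is best read as 1 measurement. HIST2H2AA3 had 6.09, 6.61 and 5.99 in the parental libraries and 12.2, 11.6 and 13.2 in OTX P/R, a log2 fold change of 0.88 ± 0.07 (limma adjusted p = 0.000276). HIST2H2AA4 had 5.29, 6.13 and 5.34 against 11.1, 10.4 and 11.5 (log2 fold change 0.87 ± 0.07; limma adjusted p = 0.000392). Each OTX P/R library of either copy was well above each parental one. HIST1H2AC, a gene that also makes polyadenylated message, had 4.16, 4.70 and 4.22 in the parental libraries and 12.1, 10.8 and 10.9 in OTX P/R. Its log2 fold change was 1.20 ± 0.07 (limma adjusted p = 0.000101), again with wide separation. It was the largest of the H2A genes on the log2(value + 1) scale, while the linear folds of HIST1H2AD (2.98) and HIST1H2AE (2.84) were above its 2.59. HIST3H2A, the 1 tested gene of the HIST3 cluster, had 3.11, 3.90 and 2.89 against 6.98, 7.95 and 7.91, a log2 fold change of 1.01 ± 0.11 (limma adjusted p = 0.000847). The smallest difference was that of HIST1H2AH, with 1.67, 1.09 and 1.06 in the parental libraries and 0.988, 1.83 and 1.87 in OTX P/R. Its groups overlapped, and it did not pass (log2 fold change 0.16 ± 0.18; limma adjusted p = 0.528). HIST1H2AD, HIST1H2AE, HIST1H2AG and HIST1H2AM were also higher, by log2 fold changes of 0.60 to 1.14, and HIST1H2AE was tested only because of OTX P/R. HIST2H2AC, HIST1H2AI, HIST1H2AJ and HIST1H2AL did not pass, with log2 fold changes of 0.35 to 0.46. HIST1H2AD lies inside RP1-34B20.21, an annotated locus on the same strand that also spans HIST1H3D, so reads of that locus cannot be told apart from reads of either gene where they overlap.

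Of 11 tested H2B genes 10 were higher, and 8 without any 1 of the OTX P/R replicates, and the type held the most abundant member. HIST1H2BK had 65.9, 63.8 and 62.7 in the parental libraries and 122.0, 117.2 and 112.2 in OTX P/R. It was the most abundant of the members in every library, and its rank in the whole table went from 1063 to 1130 in the parental libraries to 517 to 578 in OTX P/R, where 1 is the highest. Its log2 fold change was 0.86 ± 0.05 (limma adjusted p = 8.06e-05), and it gave 75.4 ± 1.29% of the summed H2B level in parental cells and 70.1 ± 1.17% in OTX P/R. HIST1H2BJ, which lies near it, had 5.27, 4.601 and 5.22 against 12.3, 12.1 and 12.7 (log2 fold change 1.15 ± 0.07; limma adjusted p = 8.17e-05). HIST1H2BD had 4.95, 5.60 and 4.66 against 10.8, 9.04 and 10.2 (log2 fold change 0.86 ± 0.09; limma adjusted p = 0.000870). In none of these genes did a parental library reach an OTX P/R library. HIST1H2BC rose most of all tested members. It was low in the parental line, at 1.09, 1.10 and 1.29, and stood at 5.88, 6.89 and 6.14 in OTX P/R, 5.42-fold on the linear scale, with a log2 fold change of 1.75 ± 0.08 (limma adjusted p = 3.94e-05). HIST2H2BE, from the HIST2 cluster, had 1.71, 1.61 and 1.47 against 4.11, 4.31 and 4.005 (log2 fold change 0.99 ± 0.07; limma adjusted p = 0.000149). The 1 tested H2B gene that did not pass was HIST1H2BL, with 1.43, 0.609 and 0.969 in the parental libraries and 1.12, 1.77 and 1.27 in OTX P/R. Those values overlapped (log2 fold change 0.26 ± 0.18; limma adjusted p = 0.302). HIST1H2BB, HIST1H2BG and HIST1H2BO were higher by log2 fold changes of 0.66 to 1.19. HIST1H2BI (1.02) and HIST1H2BM (0.45) were called too, and like HIST1H2BB they were tested only because of their level in OTX P/R. HIST1H2BI was listed at 0 in parental library 2, and its call was lost without parental replicate 3 or any 1 of the OTX P/R replicates, with limma adjusted p from 0.0537 to 0.0811. The call of HIST1H2BM was lost without any 1 of the OTX P/R replicates, with limma adjusted p from 0.0537 to 0.0671.

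H3 genes were the least abundant type, with a summed level of 9.95 ± 0.158 in parental cells and 19.6 ± 1.11 in OTX P/R (SD, n = 3 per group). Of 15 genes 5 were tested and 4 were higher. HIST1H3J was the most abundant in parental cells and moved least, from 2.51, 2.49 and 2.55 to 2.80, 3.39 and 3.07. Its libraries did not overlap, yet the log2 fold change of 0.21 ± 0.07 did not pass (limma adjusted p = 0.0668), and its share of the H3 sum went from 25.3 ± 0.338% to 15.8 ± 0.726%. HIST1H3H had 1.52, 1.46 and 1.41 against 3.71, 3.15 and 3.00 (log2 fold change 0.80 ± 0.08; limma adjusted p = 0.000808). HIST1H3D, which shares the RP1-34B20.21 locus, had 1.16, 1.24 and 1.04 against 2.92, 3.02 and 3.06 (log2 fold change 0.90 ± 0.07; limma adjusted p = 0.000218). HIST1H3C was lower in level, with 1.06, 0.803 and 0.542 against 1.71, 2.25 and 1.49 (log2 fold change 0.65 ± 0.15; limma adjusted p = 0.0172). In all of these the OTX P/R libraries were above the parental ones. HIST1H3B was higher as well, by a log2 fold change of 0.80, and its linear fold of 2.90 was above the 2.62 of HIST1H3D. Both HIST1H3B and HIST1H3C had parental means under 1 and were tested only because of OTX P/R. HIST2H3A and HIST2H3C, which share a coding sequence, had means under 1 and were not tested.

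Of 8 tested H4 genes 3 were higher. HIST1H4I, which lies apart from most of HIST1 near the H2A and H2B genes HIST1H2AH and HIST1H2BK, had 5.39, 3.60 and 3.62 in the parental libraries and 11.2, 11.1 and 10.6 in OTX P/R. The groups were far apart although parental library 1 was above the other two, and the log2 fold change was 1.22 ± 0.14 (limma adjusted p = 0.00115). HIST1H4A was the most abundant H4 gene in the parental line, with 5.02, 4.30 and 4.88, and had 5.18, 5.88 and 4.66 in OTX P/R. Its groups overlapped, with a log2 fold change of 0.12 ± 0.10, a 95% interval from -0.11 to 0.35, and a limma adjusted p of 0.375. As shares of the H4 sum, HIST1H4I went from 17.0 ± 4.03% to 26.0 ± 1.75% and HIST1H4A from 19.2 ± 1.40% to 12.4 ± 0.708%. HIST1H4H had 1.72, 3.24 and 3.36 against 6.56, 8.02 and 5.54 (log2 fold change 1.05 ± 0.22; limma adjusted p = 0.0121). HIST1H4K had 4.03, 3.01 and 2.85 against 4.95, 4.82 and 3.52, which overlap, and did not pass (log2 fold change 0.34 ± 0.15; limma adjusted p = 0.134). It has the same coding sequence as HIST1H4J, which did not pass either (0.35; limma adjusted p = 0.113). HIST2H4A and HIST2H4B are another such pair. HIST2H4B was called, at a log2 fold change of 0.47 (limma adjusted p = 0.0128), and HIST2H4A was not, at 0.38 (0.108), although reads of the coding part cannot be assigned to either copy. HIST1H4C did not pass.

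**Figure D3:**
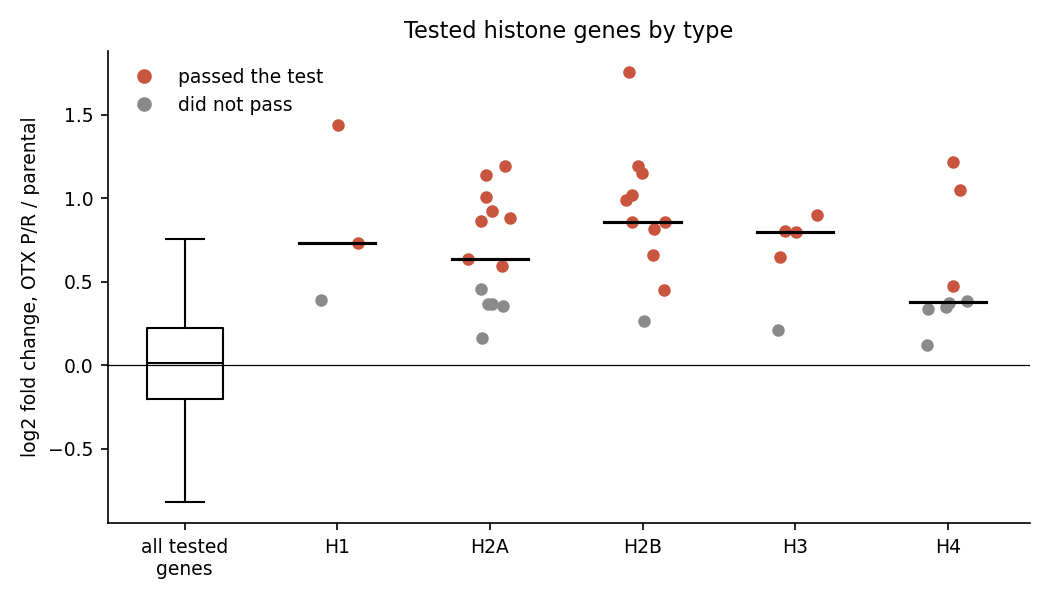
Log2 fold change, OTX P/R against parental on the log2(value + 1) scale, of each tested member by histone type, red where limma called it and grey where it did not. Horizontal bars are medians, and the box shows all 10741 tested genes with its quartiles and whiskers at the 5th and 95th percentiles; H4 has the lowest median, 0.38, and H2B the highest, 0.86.

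The HIST1 cluster was also read along its length. In gene order it falls into 3 groups, before the butyrophilin (BTN) genes, between those and ZNF184, and after ZNF184, a division made after the values were seen. The first group held 34 members, of which 16 were tested and 14 were higher, with a median log2 fold change of 0.91. The middle group, with HIST1H2BK, HIST1H2BJ, HIST1H4I, HIST1H2AG and HIST1H2AH, held 5, all tested, of which 4 were higher (median 0.86). The last group held 16, of which 12 were tested and 4 were higher (median 0.38). The summed levels went from 54.2 ± 0.244 to 134.9 ± 4.79 in the first group (2.49-fold), from 75.7 ± 3.07 to 144.2 ± 4.69 in the middle (1.91-fold) and from 23.0 ± 3.37 to 35.4 ± 2.14 in the last (1.54-fold). Over all tested genes 18.6% were higher. Of the members tested only because of OTX P/R, 5 lie in the first group and 1 in the last. The groups also differ in level, with a highest mean of a tested member of 39.3 in the first, 90.6 in the middle and 3.86 in the last. The difference between the groups was not tested.

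**Figure D4:**
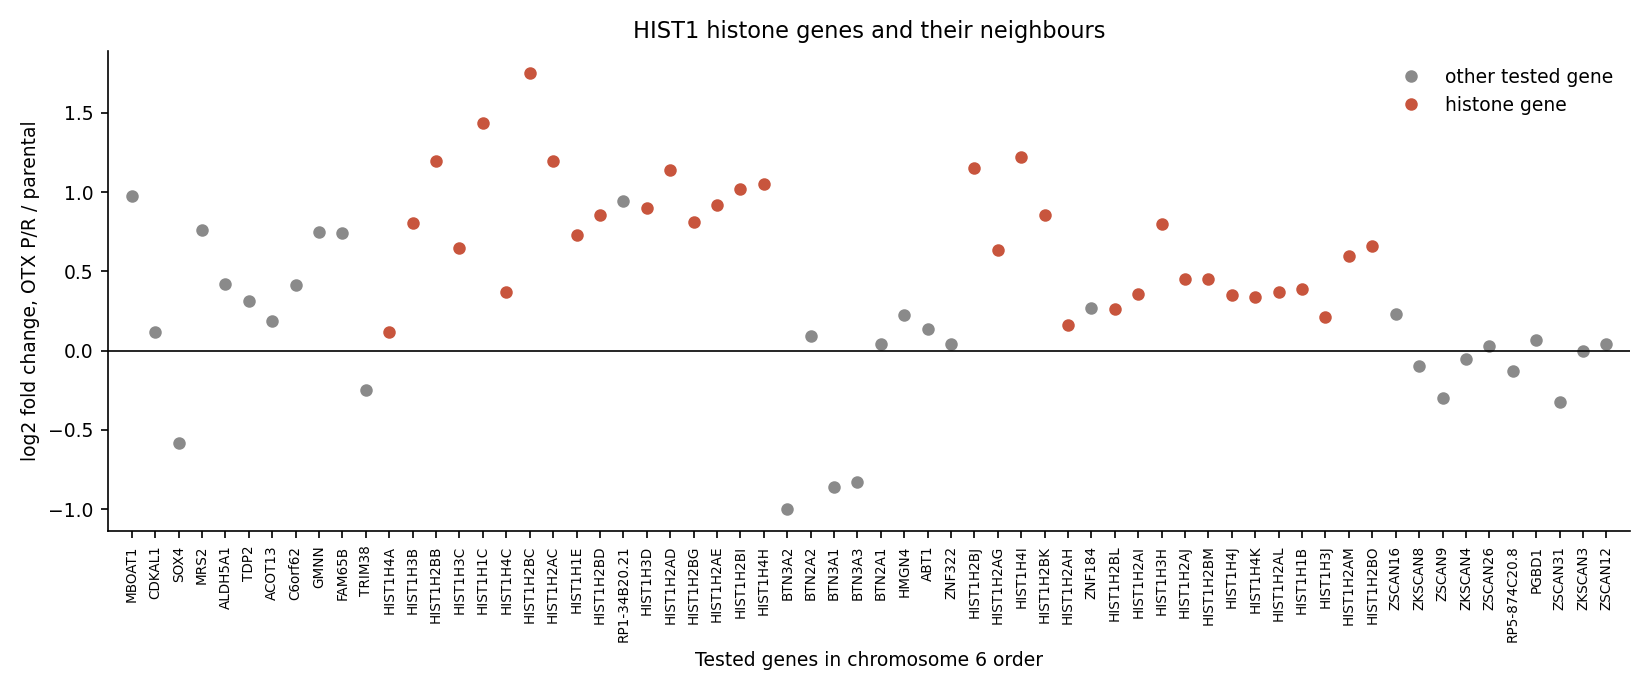
Log2 fold change of tested HIST1 members and of non-histone genes within and beside the cluster, in gene order along chromosome 6. Histone points are highest before the BTN genes, where the median is 0.91, and lower after ZNF184, where it is 0.38, while the BTN3A genes lie below 0.

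Genes that are no histones were read along the same stretch. Over all tested genes the shares called were 18.6% higher and 17.5% lower. Of the 10 tested genes just before HIST1, 7 were higher and 1 lower, with a median log2 fold change of 0.42. GMNN, the gene of the replication licensing inhibitor geminin, was among them and went from 35.3 ± 4.21 to 59.8 ± 1.27 (log2 fold change 0.75 ± 0.09; limma adjusted p = 0.00147), and SOX4 was the 1 that fell, by 0.58 on the log2 scale. Of 11 genes within the cluster, 3 were higher and 4 lower (median 0.04). The higher ones were RP1-34B20.21, which shares reads with histone genes, HMGN4 (0.23) and ZNF184 (0.27). The lower ones were TRIM38 (-0.25), BTN3A1 (-0.86), BTN3A3 (-0.83) and BTN3A2, which fell by 1.00 on the log2 scale, from 37.8 ± 6.98 to 18.2 ± 1.30. Of the 10 just after the cluster, limma called 0 in either direction (median -0.03). Without OTX P/R replicate 3 the higher neighbours numbered 6 in place of 10, and without OTX P/R replicate 1 or 3 the lower ones numbered 3 in place of 5. TRIM38, BTN3A3, HMGN4 and ZNF184 were among those that lost their call without 1 of these libraries. Of the 10 genes before the cluster, 5 were higher without parental replicate 1 or 2 or OTX P/R replicate 1 or 3, where ALDH5A1 and TDP2 lost their calls. The part of the neighbourhood in the histone values was not tested.

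HIST2 was read in the same way. Of its 12 members 6 were tested and 4 were higher (median log2 fold change 0.67), HIST2H2AA3, HIST2H2AA4, HIST2H2BE and HIST2H4B. HIST2H2AA3 and HIST2H2AA4 share a coding sequence, as do HIST2H4A and HIST2H4B, so these counts treat copies that can share reads as separate members. Its summed level went from 21.6 ± 1.63 to 39.8 ± 0.0410, 1.85-fold. Of 44 tested neighbours, 4 were higher and 17 lower, where 18.6% of all tested genes were higher and 17.5% lower. Of the 10 tested genes before HIST2H3PS2, the first member in gene order, 9 were lower, with a median of -0.87. HIST2H3PS2 lies far from the rest. Its promoter window starts at base 143905978 of chromosome 1, and that of HIST2H2BF, the next member, at 149812371. These 10 genes are therefore not beside the other members. Genes between HIST2H3PS2 and HIST2H2BF are also counted as neighbours, within the cluster. Just after the cluster 2 of 10 were higher, 1 was lower and the median was 0.08. Without OTX P/R replicate 1 or 2 the higher HIST2 neighbours numbered 2. HIST3H2BB went from a mean of 0.220 to 0.331 and HIST4H4 from 0.263 to 0.250, both under the filter.

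Most H2A and H2B genes lie as divergent pairs that share a short promoter. By gene order and strand in GENCODE the table held 11 such pairs, and in 8 both genes were tested. HIST1H2BN and HIST1H2AK, whose RefSeq promoter windows also overlap head to head, overlap as gene models in GENCODE and are not counted, and neither was tested. Both were higher in 4, the H2B gene alone in 3, the H2A gene alone in 0 and neither in 1. HIST1H2BM and HIST1H2AJ, counted with the H2B gene alone, had nearly equal log2 fold changes of 0.45 and 0.46, and without OTX P/R replicate 1 HIST1H2BM lost its call (limma adjusted p = 0.0671) and HIST1H2AJ gained one (0.0120). HIST1H2BK and HIST1H2AH had log2 fold changes of 0.86 and 0.16 and parental means of 64.1 and 1.27, levels at which the pseudocount weighs very differently. HIST1H2BC and HIST1H2AC had 1.75 and 1.20. HIST2H2BE and HIST2H2AC had 0.99 and 0.37, while HIST1H2BG and HIST1H2AE had 0.81 and 0.92. The H2B gene had the larger log2 fold change in 5 of the 8 pairs and the larger linear fold in 6, and the difference within pairs was not tested.

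Members known to make polyadenylated message can be set beside the others. Of 10 so listed, 8 were tested and all 8 were higher, with a median log2 fold change of 1.07. Of the 32 other tested members 19 were higher, with a median of 0.62. All 6 members tested only because of OTX P/R are among these 19. Over all tested genes 18.6% were higher. The summed level of the listed genes went from 104.2 ± 2.18 to 223.0 ± 7.49 (2.14-fold) and that of the others from 74.0 ± 3.54 to 139.4 ± 7.85 (1.88-fold). By gene model, 10 of 11 tested members whose annotated transcript runs at least 100 bases past the stem-loop were higher (median 0.99). So were 4 of 7 that end sooner (median 0.86) and 13 of 22 with no stem-loop found in the model (median 0.62). HIST1H2AE, tested only because of OTX P/R, is among the 4. HIST1H2BB, HIST1H2BI, HIST1H2BM, HIST1H3B and HIST1H3C, tested for that reason too, are among the 13. Of 7 members listed as raised by BET inhibitors in other cells, 6 were higher here (median 0.99) and HIST2H4A did not pass. All 6 are also among the 8 higher members of the polyadenylated list, so the 2 counts are not separate. The lists were chosen with earlier results of these data known. Of 4 members listed for germ cells, 3 were at 0 throughout and HIST1H1T was at most 0.0967. These lists overlap, and no list was tested against the others.

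Of 11 tested genes of histone transcription, 2 were higher and 1 lower, with a median log2 fold change of 0.08. Among all tested genes 18.6% were higher and 17.5% lower. NPAT, the S phase activator of the clusters, had 5.78, 4.44 and 5.23 in the parental libraries and 5.58, 4.57 and 4.49 in OTX P/R. Those values overlapped, and NPAT did not pass (-0.06 ± 0.11 on the log2 scale, with a 95% interval of -0.34 to 0.21; limma adjusted p = 0.696). HINFP, which binds H4 promoters, and CASP8AP2, a partner of NPAT, did not pass either, at 0.17 and -0.05. CCNE2, the gene of cyclin E2, rose from 1.497 ± 0.143 to 3.84 ± 1.03 (log2 fold change 0.93 ± 0.17; limma adjusted p = 0.00765). CDC25A, a phosphatase that activates CDK2, rose by 0.51 on the log2 scale. CCNE1, the gene of cyclin E1, fell by 0.33, from 14.2 ± 1.18 to 11.1 ± 0.181 (limma adjusted p = 0.0137). The cyclin E genes thus changed in opposite directions, and the parental level of CCNE1 was the higher of both.

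Genes that cut, bind or degrade histone messages were mixed. Of 19 tested, 2 were higher and 4 lower, with a median log2 fold change of 0.02, against 18.6% higher and 17.5% lower of all tested genes. SLBP, the stem-loop binding protein, had 38.4, 35.0 and 33.9 in the parental libraries and 41.2, 45.1 and 40.7 in OTX P/R. The groups did not overlap, and the log2 fold change was 0.24 ± 0.07 (limma adjusted p = 0.0380). That call was lost without parental replicate 2 or 3 or any 1 of the OTX P/R replicates, with limma adjusted p from 0.0619 to 0.107. SRRT, which links cap binding to 3′ end formation, had 0.34 and was lost without parental replicate 2 or 3 or OTX P/R replicate 2 or 3, so 0 genes of this list were higher without any of these 4. CPSF3, the enzyme that makes the cut, fell by 0.30 on the log2 scale (limma adjusted p = 0.00386), and LSM11, a protein of the U7 particle, by 0.35 (0.0151). The exonuclease gene ERI1 (-0.30, limma adjusted p = 0.0176) was the third by size. Its call was lost without parental replicate 1 or 3 or OTX P/R replicate 1 or 2, and that of LSM11 without OTX P/R replicate 2. The lower genes numbered 2 without parental replicate 3 or OTX P/R replicate 1 and 1 without OTX P/R replicate 2.

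Histone chaperones, which carry histones to the DNA, showed 5 higher and 2 lower of 23 tested (median log2 fold change 0.03). The shares over all tested genes were 18.6% higher and 17.5% lower. ASF1B, the chaperone form linked to dividing cells, went from 36.2 ± 0.584 to 46.8 ± 0.660 (log2 fold change 0.36 ± 0.04; limma adjusted p = 0.00110). ASF1A, its other form, had -0.22 (limma adjusted p = 0.0397), and its call was lost without parental replicate 2 or 3 or any 1 of the OTX P/R replicates. SUPT6H, which handles nucleosomes during transcription, fell by 0.80 on the log2 scale (limma adjusted p = 0.000260). DAXX, a chaperone of the variant H3.3, had 0.39 (limma adjusted p = 0.0490), and its call was lost without parental replicate 3 or any 1 of the OTX P/R replicates. ANP32E, which acts on H2A.Z, had 0.25 (limma adjusted p = 0.0182) and lost its call without OTX P/R replicate 1 or 2. ASF1B and SUPT6H kept their calls without any 1 library. The higher chaperones numbered 3 without parental replicate 3 or OTX P/R replicate 3 and 2 without OTX P/R replicate 1 or 2, and the lower ones numbered 1 without parental replicate 2 or 3 or any 1 of the OTX P/R replicates.

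Genes of S phase showed more rises than falls. This list shares genes with those above, with CCNE2, SLBP and MCM2 among the higher ones and CCNE1 among the lower ones. Of 44 tested, 14 were higher and 2 lower, with a median log2 fold change of 0.16, where 18.6% of all tested genes were higher and 17.5% lower. CCNE2 had the largest rise, followed by MCM7, a subunit of the replicative helicase, from 190.2 ± 8.35 to 282.1 ± 14.6 (0.57 ± 0.06; limma adjusted p = 0.000743), and UNG, which removes uracil from DNA, from 47.1 ± 2.18 to 65.0 ± 0.929 (0.46 ± 0.05; limma adjusted p = 0.000928). CDC6, which loads the helicase, fell by 0.61 on the log2 scale and CCNE1 by 0.33. The summed level of the 44 genes was 2146 to 2213 in the parental libraries and 2477 to 2557 in OTX P/R, so its libraries did not overlap either. In RNA from whole cultures, more cells in S phase and more histone RNA per cell cannot be told apart, and the part of cell cycle phase in the histone values was not tested.

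The libraries were alike in total, from 419375 to 419437, because the authors' table gives each the same distribution of values, and the sequencing depth is unknown. Of 15 megakaryocytic markers 12 were tested, 8 higher and 2 lower, with summed levels of 807 to 818 in parental libraries and 859 to 865 in OTX P/R. The lower ones were ITGA2B, from a mean of 216 in parental to 137.7 in OTX P/R, and KIT, from 106.1 to 54.3. ITGA2B and GATA1 were still high in both lines, although PF4 was at 0 and VWF and PPBP were near it. Of 8 T and NK markers 4 were tested, 0 higher and 3 lower (sums 122 to 138 and 78 to 80.7), made up mostly of NKG7 (62.2 and 29.6) and CD4 (56.0 and 47.3), with CD3E near 0. Of 5 B markers 2 were tested and lower (13.8 to 16.1 and 9.996 to 10.9), with MS4A1 at 0. Of 7 monocytic markers 2 were tested and 1 was lower (96.2 to 110.3 and 84.5 to 106.7), made up mostly of LYZ (95.7 and 92.2) and ITGAM (8.13 and 3.45), with S100A8 at 0 and CD14 near 0.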

How the data were processed

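The deposited signal is a gene abundance on a linear scale, made by the authors from the reads with StringTie after Trim Galore and HISAT2 on hg19, per the submitters' processing notes. The sources used here give neither versions nor whether it is FPKM or TPM. Sorted values differed between libraries by at most 0.243%, so the table is quantile-normalized: differences in depth or total RNA are not kept, and no counting intervals are given. Rows with a missing value (6) were left out.

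Groups came from sample titles. Log2(value + 1) of genes with a mean of at least 1 was tested with limma 3.58.1 in R 4.3.3 (trended prior, two-sided, Benjamini-Hochberg over 10741 genes, called under 0.05), which was tested on simulated data. This scale understates changes of low genes. Exact permutation of 3 against 3 libraries cannot go below 0.1. The members and lists were chosen with earlier results of these data known. Per-library values are given for the 4 most abundant tested members of each type and those with its largest and smallest log2 fold change, and for HIST2H2BE, chosen after its values were seen; from other lists, up to 3 called genes per direction. Gene order, strand and transcripts came from GENCODE release 29 (GRCh38, not the authors' build), in which all 71 identifiers were found. Alternatives were other pseudocounts, filters and priors, centring, a replicate block, summed repeats and each library left out.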

Additional observations from a re-analysis of the deposited data

How the results depend on the processing

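Over 15 alternatives no tested member changed direction, and 24 of the 27 called members kept their call wherever they were tested. HIST1H1E, HIST1H2BI and HIST1H2BM lost theirs without single libraries. HIST1H1E also lost it with no filter (limma adjusted p = 0.0731) and with the replicate block (0.0958), and HIST1H2BI with a pseudocount of 0.1 (0.0813) and with the block (0.0830). A minimum mean of 5 left few members to test: 9 were higher, 6 in HIST1, 2 in HIST2, 1 in H1, 4 in H2A, 3 in H2B, 0 in H3 and 1 in H4. With that minimum, 1 histone transcription gene was higher, and 2 HIST1 and 11 HIST2 neighbours were lower. No filter gave 8 H3 and 5 H4 genes higher.

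With each library left out in turn, the members higher ranged from 24 to 29, those of H1 from 1 to 3, processing genes from 0 to 3 higher and from 1 to 3 lower, chaperones from 2 to 6 higher and from 1 to 3 lower, HIST1 neighbours from 6 to 10 higher and from 3 to 5 lower, and HIST2 neighbours from 2 to 4 higher. These fits have fewer samples.

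Replicate numbers did not pair the libraries (correlations of deviations of same-numbered libraries from -0.065 to 0). With the replicate number as a block, 25 members were higher, 1 of them in H1, 0 processing genes were higher, 1 chaperone was higher and 1 lower, and 3 HIST1 neighbours were lower. Depth is unknown and limits the members with low values most.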
